A study of Arabidopsis thaliana with 20 samples.

Results

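The genes described here were chosen for signal that was present in wild type and often missing in a chloroplast ATP synthase mutant. A gene was taken when a row of the array listed it alone, when the deposited intensity of that row was above 0 in all 10 wild-type columns, and when it was exactly 0 in at least 4 of the 10 mutant columns. The rule gave 57 genes, out of 692 rows with a single annotated gene and 623 such rows above 0 in all 10 wild-type columns. They make up 9.15% of those 623 rows, and 9.09% of all 3134 rows above 0 in every wild-type column met the same criteria whatever their annotation, so genes with a row of their own met them about as often as rows in general. Both the zeros and the wild-type signal were used to choose the genes, so the levels below are a description and carry no test.

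The mutant group is Arabidopsis thaliana atpc1-1, labelled as having no γ subunit of ATP synthase, and the comparison group is wild type (WT). Both are in the Columbia 0 ecotype and both were grown on MS medium, a standard plant culture medium. Total RNA was measured on an array with 10 columns per genotype and 3439 rows. The labels give no tissue, no plant age, no treatment and no number of plants, nor how the mutation was made. Spots differ in how well they bind their target, so a row that is brighter or dimmer than another here has more or less array signal, which is no comparison of transcript amounts between genes.

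The γ subunit forms the rotating shaft of the chloroplast ATP synthase. This thylakoid complex turns under the flow of protons stored by photosynthetic electron transport, and its turning drives ATP formation. Plants without the enzyme cannot carry out photophosphorylation, and nuclear genes for many plastid and other proteins are known to respond to the state of the chloroplast. The sources used here do not say how a value of exactly 0 arose, so a 0 is read only as no deposited signal, and a failed spot and a low level cannot be told apart.

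The columns differed in ways that bear on every zero. Over all rows, 5.70% to 20.8% of values were 0 in atpc1-1 columns, against 3.63% to 4.36% in WT columns, and the median intensity per column was 0.130 to 0.224 in atpc1-1 against 0.339 to 0.493 in WT, on the deposited linear scale on which all intensities here are given. The labels do not say how the 10 columns relate to plants or arrays, so p-values measure only the spread between them, which may be technical. Columns with adjoining numbers of the same genotype correlated best with each other in 20 of 20 cases and were treated as 1 replicate, which gives 5 replicates per genotype, although the partner correlations in atpc1-1 were low at -0.0678 to 0.197 (WT 0.161 to 0.711). In atpc1-1, replicate 2 stood apart with few zeros, at 5.70% and 6.48% of rows, and in WT, replicate 5 stood apart with the lowest column medians, at 0.339 and 0.347. The row that lists ATPC1, the gene of the γ subunit, together with ATPC2 had no zeros and spanned 0.113 to 1.96 in atpc1-1 and 0.315 to 0.760 in WT (log2 difference 0.18, SE 0.39, limma adjusted p = 0.759), so it checks nothing about the labels. The green-tissue genes LHCB1.5, PSAN, PSBW, PSBY and PRK were above 0 in all 20 columns, with lowest values of 1.17 in atpc1-1 and 0.704 in WT, both in PRK.

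Zeros followed brightness in WT. The 57 genes had WT geometric means between 0.0447 and 0.979 with a median of 0.186, against a median of 0.489 in the other genes above 0 in all WT columns. When the 3134 rows were split into 5 equal bins by WT brightness, 28.1% of the dimmest bin had at least 4 zeros in atpc1-1, and the share was 10.4%, 5.11%, 1.75% and 0.159% in the bins above it. The 57 genes also lay mostly in the dim bins, with 40 in the dimmest and 13, 2, 2 and 0 in the bins above it. The opposite pattern was not seen: of 1771 rows above 0 in all 10 atpc1-1 columns, 0 had at least 4 zeros in WT. That requirement left almost only rows without zeros in either genotype, since 1761 of the 1771 were above 0 in all 10 WT columns too. The comparison therefore cannot decide whether the pattern is particular to atpc1-1.

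To see which genes had more zeros than their brightness in WT would give, each was set beside the 100 other rows nearest to it in mean WT log2 intensity, all above 0 in every WT column. These neighbours averaged between 0.230 and 3.27 zeros in atpc1-1, with a median of 2.11 over the 57 genes. All 57 genes had more zeros than the mean of their neighbours, which the minimum of 4 zeros fixes in advance since no such mean exceeded 3.27. A stricter mark is the 95th percentile of the neighbours, which 13 of 57 genes (22.8%) passed and 44 did not. The same mark was passed by 3.67% of all 3134 rows and 2.41% of the 623 genes, few of which have the 4 zeros that the choice required. Among the 228 other rows with at least 4 zeros it was passed by 34.6%. The 13 were AT5G38360, AT1G32220, CCS, PRA1.B3, GH9B16, AT2G27630, AT4G21820, AT-HF, AT2G24810, PRA1.B6, AT1G62010, AT5G43770 and AT5G01960. For the other 44, rows of equal WT brightness had as many zeros often enough that the count of zeros does not set the gene apart from them, and for AT1G73120 and AT1G76050 it was reached by 35 of the 100 neighbours.

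**Figure D1:**
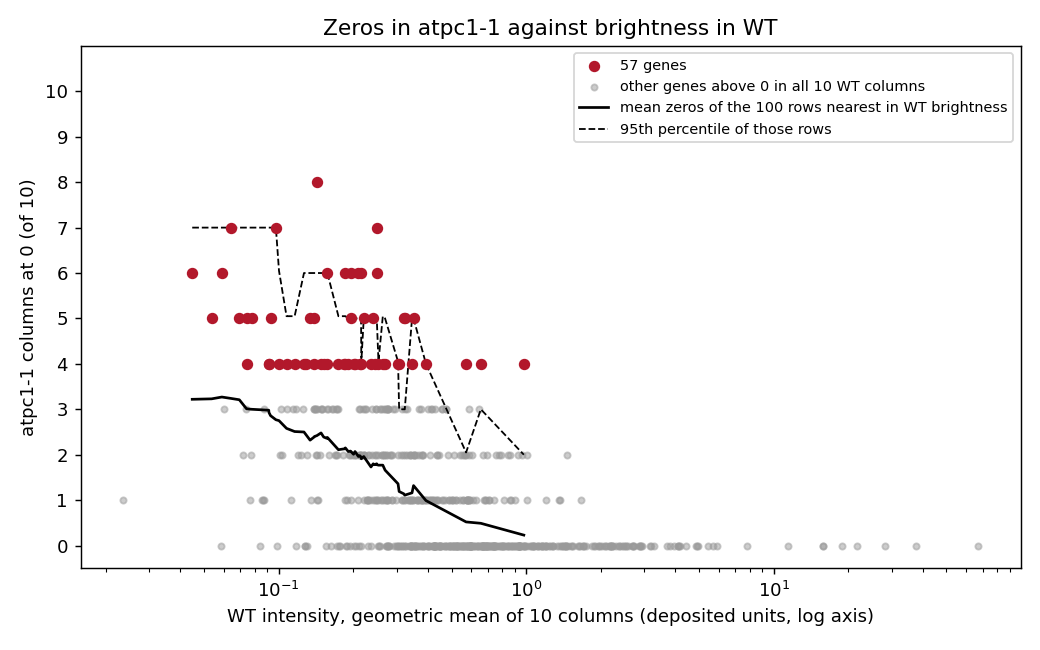
Number of atpc1-1 columns at 0 (vertical axis, of 10) against the geometric mean of the WT intensity (horizontal log axis, deposited units) for the genes with a row of their own that were above 0 in all 10 WT columns. Red points are the 57 genes chosen, grey points the others, the solid line the mean and the dashed line the 95th percentile of zeros in the 100 rows nearest in WT brightness, and the mean falls from 3.22 zeros at the dimmest of the 57 genes to 0.230 at the brightest.

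By number of zeros, 32 genes were at 0 in 4 of the 10 atpc1-1 columns, 13 in 5, 8 in 6, 3 in 7 and 1 in 8. The gene with 8 was AT5G38360, which lay at 0.0130 and 0.0348 in the other 2 atpc1-1 columns. In WT it ranged from 0.0331 to 0.343 with a median of 0.185, and only 1 WT column, of replicate 5, lay below the higher atpc1-1 value. Its neighbours averaged 2.42 zeros, and 0 of 100 had as many as 8.

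The genes with 7 zeros were AT1G32220, AT4G09970 and AT3G08000. AT1G32220 had 0.0331, 0.146 and 0.0541 in the atpc1-1 columns above 0, against 0.0817 to 0.493 in WT with a median of 0.307, and 0 of its 100 neighbours had as many zeros. AT4G09970 reached 0.217 in 1 atpc1-1 column, against a WT median of 0.0984 and a WT range of 0.0472 to 0.325. AT1G32220 thus overlapped WT in 1 column, through WT replicate 5, while AT4G09970 overlapped the body of the WT values. AT3G08000 was among the dimmest genes in WT, with a median of 0.0769, and 11 of its neighbours had at least 7 zeros.

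RefSeq's gene table gives a name beyond the locus number for 8 of the 57 genes, and the other 49 are known here by locus number alone, so no role is given for them. The 8 fall into a few groups: trafficking proteins of the prenylated Rab acceptor family (PRA1.B3 and PRA1.B6), cell wall enzymes of glycosyl hydrolase family 9 (GH9B16 and GH9B8), plastid and copper metabolism (AT-HF and CCS), a MADS-box gene (AGL54) and DRT100. They are described in that order.

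PRA1 proteins are small membrane proteins of the endomembrane system that bind prenylated Rab GTPases, and both family members with a row of their own were among the 57. The share over the 623 genes above 0 in every WT column was 9.15%, and 2 genes are too few for a statement about the family. PRA1.B6, the brightest of the 57 genes in WT, lay at 0 in 4 atpc1-1 columns and at 0.0237 to 0.292 in the other 6, against 0.324 to 1.53 in WT with a median of 1.19. Every atpc1-1 column was thus below the lowest WT column. Its neighbours averaged 0.230 zeros, the fewest of any of the 57 genes, and 1 of 100 had 4 or more. In WT the 2 columns of replicate 5, at 0.350 and 0.324, lay well below the 1.10 to 1.53 of the other 8.

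PRA1.B3 had 6 zeros in atpc1-1 and 0.0590, 0.0626, 0.0177 and 0.0312 in the other 4 columns. Its WT values ranged from 0.0491 to 0.430 with a median of 0.272, and again the lowest ones, 0.0491 and 0.0974, were those of replicate 5. A second row lists PRA1.B3 together with PRA1.B1 and PRA1.B2, and its values were not used to choose the genes. That row had 2 zeros in atpc1-1 and 0 in WT, with a median of 0.0546 in atpc1-1 against 0.207 in WT. After quantile normalisation it did not pass the test (log2 difference 0.64, SE 0.53, limma adjusted p = 0.398), and on the deposited scale its difference was negative, at -0.95.

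Family 9 glycosyl hydrolases of class B are endo-1,4-β-glucanases that act on cellulose and related glucans of the cell wall. Of 4 family members with a row of their own, GH9B16 had 6 zeros and GH9B8 4 zeros in atpc1-1, and GH9B11 and GH9B12 had 3 each and so fell just outside the rule. GH9B16 showed its zeros in whole replicates: the 6 columns of replicates 3, 4 and 5 were at 0, while replicates 1 and 2 gave 0.111, 0.0783, 0.286 and 0.240. In WT it ranged from 0.268 to 0.538 in replicates 1 to 4, and lay at 0.134 and 0.00369 in the columns of replicate 5. Its median WT level was 0.347 over all 10 columns.

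A second row lists GH9B16 together with GH9B17 and GH9B18 and gives a measurement that the choice of genes did not use. It had 3 zeros in atpc1-1 and 0 in WT, with a median of 0.0214 in atpc1-1 against 0.584 in WT. Its log2 difference of -2.64 (SE 0.92) did not pass the test over all rows (limma adjusted p = 0.0581), with a mean of -4.46 ± 2.23 (SD, n = 4) in atpc1-1 and -1.82 ± 0.94 (SD, n = 5) in WT. The call depended on the processing. In limma it passed as lower on the deposited scale (-4.02), after median centring (-2.84) and with all 10 columns as replicates (-2.25). It did not pass after cyclic loess (-2.53), with a replicate block (-2.53) or with the lowest positive value for each 0 (-3.09). With 1 replicate left out it ranged from -3.38 to -1.73: it passed as lower without atpc1-1 replicate 2 (-3.38) or WT replicate 5 (-3.03), and in the other 8 cases it did not, with -1.73 and an adjusted p of 0.119 from limma without atpc1-1 replicate 4. GH9B8 had zeros in both columns of replicate 3 and in 1 column each of replicates 1 and 5, and the other 6 columns ran from 0.00514 to 0.567. The highest of these lay above all 10 WT columns, which ranged from 0.0234 to 0.288, so the genotypes overlapped. GH9B11 and GH9B12, which did not pass the test (log2 differences -0.71 and -0.20, limma adjusted p = 0.123 and 0.865), had WT medians of 0.448 and 0.299.

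AT-HF, also called HISN4, is the imidazole glycerol phosphate synthase of histidine synthesis, a plastid pathway. It was at 0 in 5 atpc1-1 columns and between 0.00656 and 0.104 in the other 5, against 0.0932 to 0.741 in WT with a median of 0.333. CCS, the copper chaperone that loads copper into copper/zinc superoxide dismutase, was at 0 in 6 atpc1-1 columns and at 0.0205, 0.167, 0.101 and 0.0593 in the rest, against 0.0663 to 0.478 in WT with a median of 0.302. Both genes passed the 95th percentile of their neighbours, and both overlapped WT in 2 atpc1-1 columns, in each case only through the low WT columns of replicate 5. A word search of symbols and synonyms for histidine synthesis, superoxide dismutase and copper found no other gene with a row of its own. Genes whose names do not spell out these words were not covered. CUTA, for example, had a row of its own with 0 zeros in atpc1-1 and a WT geometric mean of 3.17.

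The remaining named genes were dim in WT and stood within the range of their neighbours. AGL54, a gene of the MADS-box transcription factor family, had 5 zeros in atpc1-1, and its highest atpc1-1 value of 0.135 was close to the WT median of 0.134, within a WT range of 0.0589 to 0.275. DRT100, named for DNA damage repair and toleration, had 5 zeros and up to 0.0703 in atpc1-1, against 0.00615 to 0.156 in WT. The number of zeros was matched or passed by 13 of 100 neighbours for AGL54 and by 23 for DRT100. The related genes AGL26, AGL103 and DRT101, which have rows of their own, were above 0 in all 20 columns. A row that lists AGL54 with AGL53 and AGL93 was above 0 in all 20 columns too and did not pass the test (log2 difference -0.65, SE 0.28, limma adjusted p = 0.113).

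Among the genes without a name, AT1G62010 and AT5G43770 were the brightest in WT. AT1G62010 had 4 zeros in atpc1-1 and at most 0.292 in the other columns, against 0.422 to 0.969 in WT with a median of 0.693. AT5G43770 had 4 zeros and at most 0.117, against 0.250 to 0.902 in WT with a median of 0.725. In both genes the genotypes did not overlap in any column, and 1 of 100 neighbours had as many zeros. AT4G21820 had 5 zeros and at most 0.208 in atpc1-1, against 0.0986 to 0.470 in WT, and only the columns of WT replicate 5 lay below 0.319.

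AT2G24810 had 6 zeros and at most 0.0994 in atpc1-1, against 0.0771 to 0.351 in WT with a median of 0.204, where the 2 columns of replicate 5 were again the lowest. AT2G27630 was different: it had 6 zeros in atpc1-1 but reached 0.450 in 1 column of replicate 3, above its WT range of 0.118 to 0.384. The other column of the same replicate was at 0. Zeros in that gene therefore stood beside 1 value as high as any in WT.

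**Figure D2:**
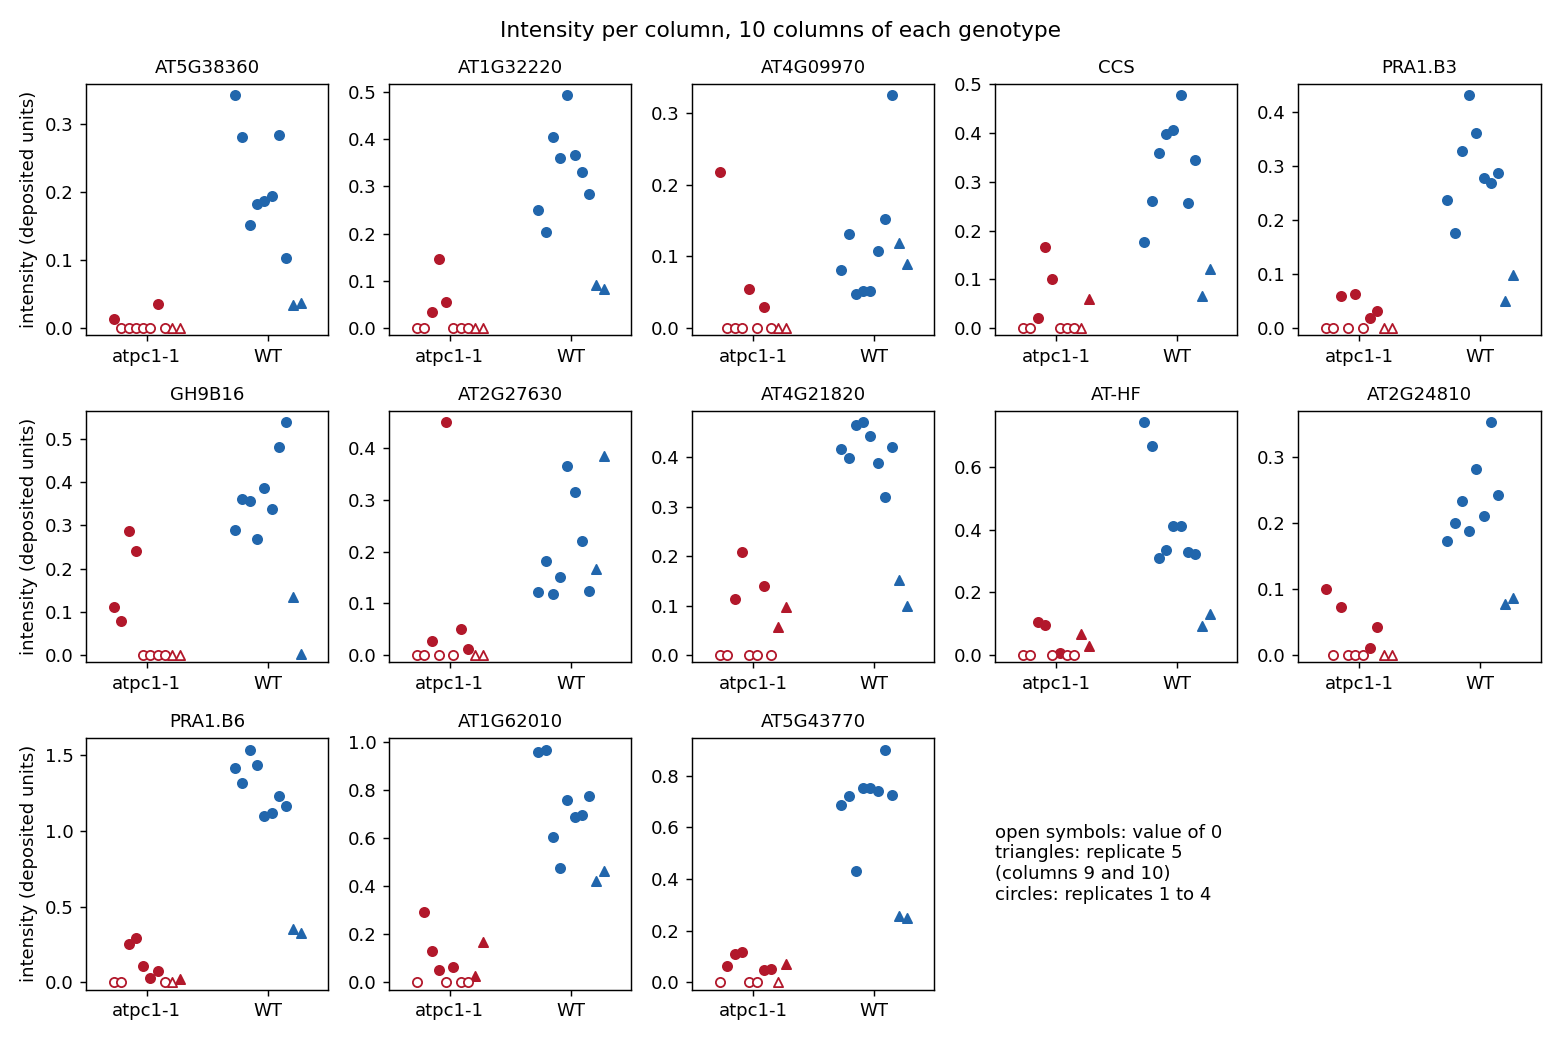
Deposited intensity in each of 10 atpc1-1 columns (red, left) and 10 WT columns (blue, right) for the 10 genes with the largest excess of zeros over their neighbours and the 3 brightest in WT; open symbols are values of 0 and triangles mark replicate 5. In PRA1.B6, AT1G62010 and AT5G43770 every atpc1-1 column lies below every WT column, and in most of the other panels the WT triangles lie nearest to the atpc1-1 values.

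Signal that remained in atpc1-1 was mostly low. Over the 57 genes, 270 of 570 atpc1-1 values were 0, and of the 300 above 0 the median was 0.0688 and 70.0% lay below 0.1, against 20.9% of the 570 WT values, whose median was 0.191. Gene by gene, the median of the atpc1-1 columns above 0 was 0.0408 to 1.23 times the WT median, with a middle value of 0.325, against 0.472 in the neighbouring rows treated the same way. It was lowest in AT1G50020 and was above 1 in AT3G43610, AT5G52660, AT1G05860 and AT1G76050, all of them dim in WT. In 44 of 57 genes the ratio was below that of the gene's own neighbours. The neighbours were not chosen for zeros in atpc1-1, and the ratio was not taken in the 228 other rows with at least 4 zeros. A lower ratio therefore cannot be called particular to these genes.

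The genotypes overlapped in 50 of the 57 genes. Every atpc1-1 column lay below the lowest WT column in the other 7, which were PRA1.B6, AT1G62010, AT5G43770, AT1G35210, AT5G01960, AT1G53260 and AT3G58570. That is 12.3% of the genes, against 23.0% of all rows above 0 in every WT column. In 38 genes no atpc1-1 column reached the WT median, and in 9 at least 1 atpc1-1 column exceeded the highest WT column (AT2G27630, AT1G11820, AT3G43610, AT5G48130, AT3G17950, GH9B8, AT5G02710, AT3G06570 and AT2G45990). For neither number was the share over all rows counted. The column medians over all rows were lower in atpc1-1 too, so neither can be called particular to these genes. Without WT replicate 5 the number that did not overlap was 21, or 36.8% of the genes against 35.7% of all rows. It was 12 without atpc1-1 replicate 2 and 11 without atpc1-1 replicate 3, where the share of all rows was not counted. Leaving out columns cannot lower this number in any set of rows, so a rise alone does not set the 57 genes apart. Without WT replicate 5 their share went from 12.3% to 36.8%, and that of all rows from 23.0% to 35.7%. Whether the other rises differ from those in all rows was not tested.

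**Figure D3:**
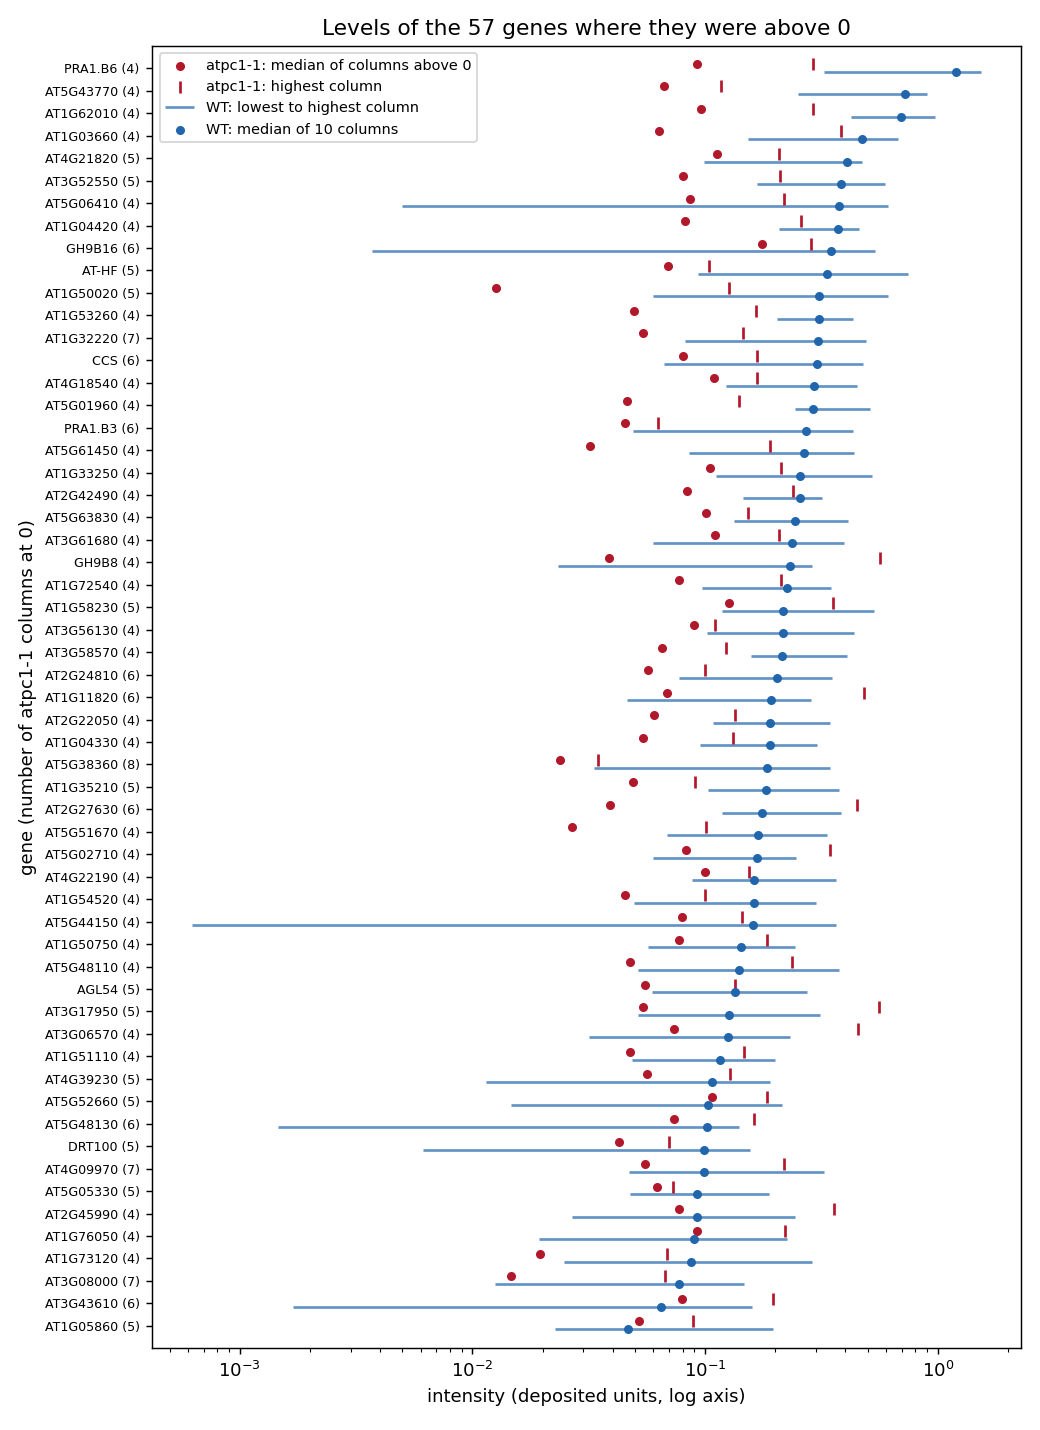
Intensity (horizontal log axis, deposited units) of each of the 57 genes, ordered by WT median with the brightest at the top and with the number of zeros in brackets; red dots and ticks are the median and the highest of the atpc1-1 columns above 0, and blue dots and lines the median and the range of the 10 WT columns. Red dots lie left of the blue dots in all but 4 genes at the dim end, and the red tick lies within the blue line in most genes.

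Replicate 5 of WT was low in these genes. Its mean was 0.0469 to 1.80 times that of WT replicates 1 to 4, with a median of 0.482 over the 57 genes, against 0.775 in the rows of equal WT brightness and 0.805 in all 3077 other rows above 0 in every WT column. It was below the neighbours in 44 of 57 genes, and in 30 of 57 (52.6%) both of its columns were the lowest of the 10, as in 30.0% of the other rows. The extreme was AT5G06410, with 0.00497 and 0.0351 in those columns and 0.223 to 0.610 in the other 8. Those other rows were not chosen for zeros in atpc1-1, and the ratio was not taken in the 228 of them with at least 4 zeros. A low replicate 5 therefore cannot be called particular to the 57 genes. What makes this replicate differ was not tested.

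**Figure D4:**
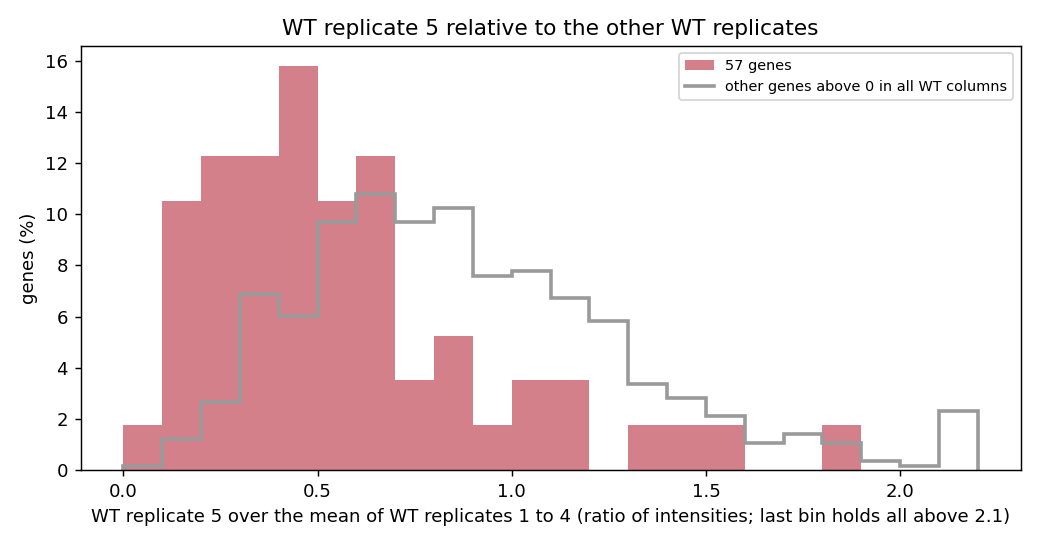
Ratio of the mean intensity of WT replicate 5 to that of WT replicates 1 to 4 (horizontal axis) as a percentage of genes (vertical axis), for the 57 genes (red) and for the other genes above 0 in all WT columns (grey line). The red distribution lies to the left, with a median ratio of 0.482. The other genes were not chosen for zeros in atpc1-1.

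The zeros were spread unevenly over the atpc1-1 columns. Between 27 and 37 of the 57 genes were at 0 in each column of replicates 1, 3, 4 and 5, but only 7 and 14 in the columns of replicate 2. Replicate 2 was lowest in the other rows too, with 1.88% and 2.27% at 0 against 6.82% to 17.5% in the other columns. Without replicate 2, 53 of the 57 genes still had at least 4 zeros among the 8 columns left, and without replicate 1, 3, 4 or 5 the numbers were 23, 27, 30 and 34.

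Counting each gene in each replicate once, both columns were at 0 in 78 cases and 1 of them in 114, so that both were at 0 in 40.6% of the cases with any zero. Among the 228 other rows with at least 4 zeros the share was 41.6%. By gene, 4 genes had 3 replicates with both columns at 0 (AT5G38360, AT1G32220, GH9B16 and AT5G48130), 17 had 2, 32 had 1 and 4 had 0. A zero in 1 column was thus often set beside a positive value in its partner.

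**Figure D5:**
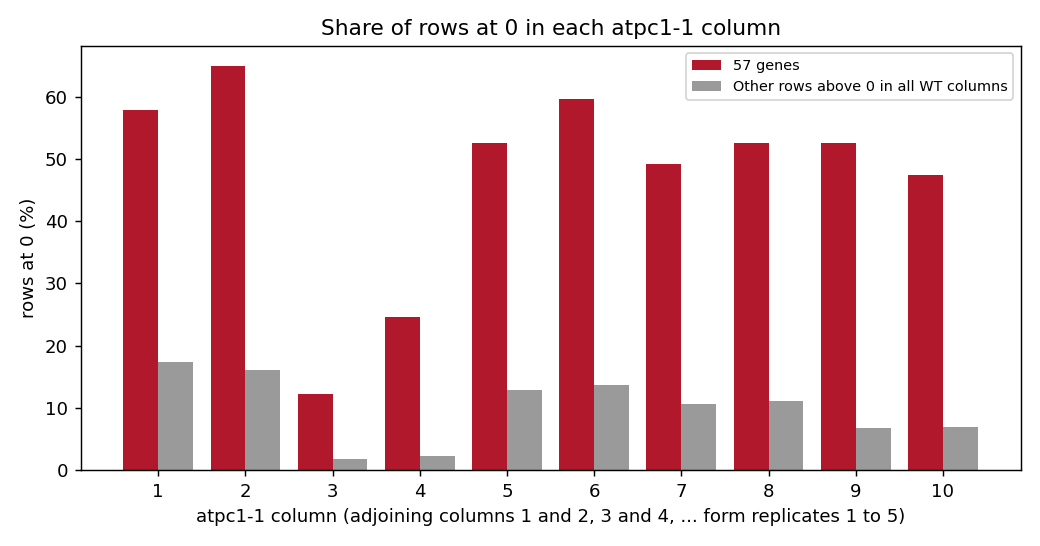
Percentage of rows at 0 in each of the 10 atpc1-1 columns, for the 57 genes (red bars) and the 3077 other rows above 0 in all WT columns (grey bars). Both sets are lowest in columns 3 and 4, which form replicate 2, with 12.3% and 24.6% of the 57 genes and 1.88% and 2.27% of the other rows.

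Genes just inside and just outside the rule overlapped in WT level. The 32 genes with exactly 4 zeros had WT geometric means from 0.0742 to 0.979 with a median of 0.196, and the 57 genes with exactly 3 zeros had 0.0601 to 0.643 with a median of 0.239. The brightest of those outside were AT2G14660, with at most 0.277 in atpc1-1 against 0.489 to 0.792 in WT, and AT4G23110, with at most 0.278 in atpc1-1 against 0.357 to 0.785 in WT. They were followed by AT5G01860, AT5G65490 and AT5G62550, with WT medians of 0.530, 0.510 and 0.502. Of the genes with 3 zeros, 54 of 57 had more zeros than the mean of their neighbours, which the choice of 3 zeros nearly fixes, since that mean exceeds 3 only among the dimmest rows.

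A fit across all rows treats a 0 as missing and so sees these genes only where they gave signal. Of the 57 genes, 53 had a value in at least 3 replicates of each genotype, and limma called 5 of them lower (9.43%) and 4 higher (7.55%) in atpc1-1, against 14.3% and 10.2% of all 3298 rows tested, or 24.5% in either direction. The 5 were PRA1.B6, AT1G53260, AT5G43770, AT1G62010 and AT5G01960, with log2 differences of -2.60, -1.97, -1.76, -1.65 and -1.09, and each is also among the genes whose genotypes did not overlap. The 4 were AT3G43610, AT5G52660, AT1G76050 and AT1G05860, at 2.65, 2.01, 1.68 and 1.32, the same genes whose remaining atpc1-1 signal was as high as in WT. When the lowest positive value took the place of each 0, all 57 could be fitted and 7 were called lower (12.3%) and 0 higher, against 7.07% and 11.9% of all 3439 rows. On the deposited scale with no normalisation, 29 of 53 were called lower (54.7%) and 0 higher, against 57.5% and 3.82% of all rows. A fit with the replicate number as a block called 6 lower (11.3%) and 1 higher (1.89%), against 12.6% and 9.61% of all rows. The number called lower or higher thus depends on the scaling and on the treatment of zeros. The genes were chosen on this contrast, so these counts are given as a description.

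Other rows that list one of the 57 genes beside further genes offer a measurement the choice did not use, though a row with several genes cannot be put down to 1 of them. There were 7 such rows, for 7 genes, and 6 could be tested. The seventh, with AT3G58570 and 3 other genes, was at 0 in 5 atpc1-1 columns and in 8 WT columns, and its highest values were 0.411 in atpc1-1 and 0.0534 in WT. The row with AT1G05860, AT3G53860 and AT2G31600 fell in atpc1-1, to a mean of -2.20 ± 0.80 against -0.48 ± 0.27 in WT (log2 scale, SD, n = 5 each). The log2 difference was -1.72 with an SE of 0.37 and a limma adjusted p of 0.0103. It was above 0 in all 20 columns and ranged from 0.0465 to 0.524 in atpc1-1 and from 0.504 to 1.13 in WT, a call that held under every scaling tried and with each replicate left out. The row of AT1G05860 alone was the one at 1.32 above, fitted on the columns where it gave signal. The other 5 did not pass, at -2.64 with GH9B16, -0.65 with AGL54, -0.61 with AT3G56130, -0.04 with AT2G22050 and 0.64 with PRA1.B3. The fit called 14.3% of all 3298 rows lower, so 1 call among 6 rows does not set them apart.

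By their locus numbers in RefSeq, 19 of the 57 genes lie on chromosome 1, 6 on chromosome 2, 9 on chromosome 3, 7 on chromosome 4 and 16 on chromosome 5. The genes with a row of their own were spread at 25.1%, 18.0%, 18.8%, 17.4% and 20.7%, against 33.3%, 10.5%, 15.8%, 12.3% and 28.1% of the 57. Among the 57, AT5G48110 and AT5G48130 are 2 places apart in the order of protein-coding genes, AT5G05330 and PRA1.B3 are 6 apart, and AT1G04330 and AT1G04420 are 9 apart. The median gene span was 2095 bases, against 2162 in the other genes with a row of their own.

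A last set of genes had 4 or 5 zeros in atpc1-1 and WT medians between 0.0924 and 0.475, and none passed the 95th percentile of its neighbours. With 5 zeros these were AT3G52550, AT1G58230, AT5G05330 and AT4G39230. With 4 zeros they were AT1G03660, AT1G04420, AT4G18540, AT1G33250, AT5G63830, AT2G42490, AT5G61450, AT1G72540, AT3G61680, AT4G22190, AT1G04330, AT5G51670, AT1G54520, AT5G48110, AT1G50750, AT1G51110 and AT5G44150. The brightest of them in WT was AT1G03660, with 0.383 in its highest atpc1-1 column against 0.152 to 0.674 in WT.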

How the data were processed

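The deposited values are linear intensities for 3439 rows and 20 columns, 10 of atpc1-1 and 10 of WT; the sources used here do not say what the authors did to make these intensities (background, scaling, the floor that gives 0). Rows were named from GEO's platform annotation, with symbols from RefSeq, which listed all 57 genes and gave 8 of them a symbol. Expected zeros are the mean and the 95th percentile over the 100 rows nearest in mean WT log2 intensity, with the 57 genes left out. For the fit, adjoining columns were averaged to 5 replicates per genotype, log2 values were quantile normalised, zeros were missing, and rows with at least 3 replicates per genotype were fitted with limma 3.58.1 in R 4.3.3, with Benjamini-Hochberg adjustment and a threshold of 0.05. The fit was also run on simulated data in which both genotypes had the WT spread. That run does not cover rows with a larger spread in atpc1-1. The 10 genes with the largest excess of zeros and the 3 brightest in WT are described in full. The genes and lists were chosen with earlier results of these data known. A planned grouping by product name and a planned search of promoters were not made, because product names and sequences were not used here. Under the selection rule 1 gene was left out and is not reported here. The number of columns limits the precision.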

Additional observations from a re-analysis of the deposited data

Results flagged for a closer look

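In replicate means of the 57 genes, 61 groups with signal above 0 in all 5 replicates were screened for a sample far from the others, by its distance from the next sample divided by the whole spread of the group. All 57 genes gave a WT group, which the choice required, but only 4 gave an atpc1-1 group. The numbers flagged in the 2 genotypes are therefore not comparable. Chance flags about 1 in 20, or 3.05 groups if the groups were independent, and 12 were found. The groups share the same replicates and so are not independent, and the share flagged over all rows was not counted. The 12 therefore cannot be read as an excess in these genes. Of these, 9 were WT replicate 5 at the low end: AT5G06410 with a gap of 0.770 of the range, DRT100 with 0.744, AT3G06570 with 0.731, GH9B8 with 0.766, AT5G38360 with 0.713, AT4G21820 with 0.818, GH9B16 with 0.841, PRA1.B6 with 0.805 and AT5G48130 with 0.8003. WT replicate 4 was the low sample in AT5G44150, with 0.845. In atpc1-1, replicate 5 was the low sample in AT1G04420, with 0.718, and replicate 3 in AT3G56130, with 0.732. The cause was not tested.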

How the results depend on the processing

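The number of genes chosen was 114 with a minimum of 3 zeros and 25 with a minimum of 5, and 23 to 60 with 1 replicate left out. The number above the 95th percentile of their neighbours was 10 to 17 under other definitions of neighbours, brightness or zero and 9 to 14 with 1 replicate left out; with neighbours taken only from single-gene rows it was 57 by construction, since the genes themselves were left out, and 16 with them kept. The number above the neighbours' mean was 54 to 57, and the number whose genotypes did not overlap was 7 to 21, with 1 replicate left out. Leaving out columns cannot lower the number without overlap. Among these cases its share over all rows was counted only without WT replicate 5. Over all rows limma called 471 lower and 337 higher, with a median log2 difference of -0.19. It called 1896 lower and 126 higher on the deposited scale (median -1.22), 403 and 497 after centring on the median (-0.05), 293 and 310 after cyclic loess (-0.16), 243 and 408 where the lowest positive value stood in for each 0, and 827 and 516 with all 10 columns as replicates, which counts paired columns as independent. Of the 57 genes, 5 were called lower and 4 higher, against 29 and 0 on the deposited scale. The numbers were 7 and 0 with the lowest positive value for each 0, and 6 and 1 with the block. After median centring 9 were lower (17.0%, all rows 12.2%) and 1 higher (1.89%, all rows 15.1%). After loess 7 were lower (13.2%, all rows 8.88%) and 1 higher (1.89%, all rows 9.4%). With all 10 columns 6 of 32 were lower (18.8%, all rows 26.8%) and 3 higher (9.38%, all rows 16.7%). With 1 replicate left out 3 to 7 were lower (5.66% to 13.2%, all rows 7.87% to 16.5%) and 1 to 3 higher (1.89% to 7.69%, all rows 5.91% to 12.7%). Over all rows, with 1 replicate left out, the ranges were 258 to 540 lower and 194 to 417 higher; the low ends came without WT replicate 3 (258) and without WT replicate 2 (194). Of the other rows that list 1 of the 57 genes, 1 of 6 was called lower, where 14.3% of all rows were. The number was 5 on the deposited scale (57.5% of all rows), 2 with median centring (12.2%) and 3 with all 10 columns (26.8%). It was 1 to 2 with 1 replicate left out (7.87% to 16.5% of all rows). With the lowest positive value for each 0, 7 could be tested, 1 lower and 1 higher (7.07% and 11.9% of all rows). The row with AT2G22050, at -0.04, changed sign under some settings: it was at 0.13 after median centring, 0.075 after loess, 0.14 where the lowest positive value stood in for each 0, and -0.13 to 0.14 with 1 replicate left out (0.039 without atpc1-1 replicate 1 and 0.14 without WT replicate 5), and the row with PRA1.B3 was at -0.95 on the deposited scale; the cause was not tested. Correlations of same-numbered replicates across genotypes were 0.0244 to 0.216, not all over 0.1, and 6 of 10 replicates matched their own number best, a hint of pairing that the labels do not state. With a replicate block 415 rows were lower and 317 higher. Whether a 0 is a failed spot or a low level cannot be told from these values.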

Other observations

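The rows with the most zeros do not list exactly 1 gene, but single-gene rows are only 623 of the 3134 above 0 in every WT column. The share with at least 4 zeros was 9.15% in those 623 and 9.09% in all 3134. A row that lists 2 genes was at 0 in all 10 atpc1-1 columns, against 0.0716 to 0.354 in WT with a median of 0.255. Another row that lists 2 genes was at 0 in 9 and at 0.179 in the remaining atpc1-1 column, against 0.204 to 0.871 in WT with a median of 0.601. Of the rows with no gene named here, 3 had 9 zeros, with at most 0.151 in atpc1-1 and WT medians of 0.125 to 0.243, and 3 had 8 zeros, with at most 0.0692 in atpc1-1 and WT medians of 0.113 to 0.2105.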
